A study of Mus musculus with 13 samples.

Results

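The genes described here encode the degrading machinery of the lysosome in mouse cortex: 23 hydrolases, 3 soluble activators or precursors that serve them, 6 membrane or transport proteins and 17 subunits of the proton pump. They were taken by name, 49 genes in all, from a table of 20971 genes. The list was chosen with earlier results of these data known, so it is not blind to the groups. Levels are in RPKM, reads scaled to the length of the gene and to the mapped reads of the library. Genes whose 13 libraries averaged 0.5 RPKM or more were tested, which 48 of the 49 did, among 13343 genes. The gene left out was Atp6v0d2, at 0.0495 RPKM. The weakest gene kept was Sgsh, at 1.24 RPKM.

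RNA was sequenced from the cortex of 13 C57BL/6 mice aged 6 months, of which 6 were APPPS1 and 7 were APPPS1;Apoe-/-. Animals of both groups carry the APPPS1 transgenes, mutant human genes for amyloid precursor protein and presenilin that the Thy1 promoter drives in neurons, and such mice deposit amyloid plaques in the cortex. The groups differ by the loss of both copies of Apoe, which encodes the main lipid carrier of the brain. No group without the transgenes was compared here.

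Lysosomes degrade sphingolipids, glycosaminoglycans, glycoproteins and proteins with soluble hydrolases that work at acid pH. The V-ATPase pumps in the protons. Its membrane sector, V0, carries them, and its cytosolic sector, V1, burns ATP to turn the rotor. In the brain, microglia hold many lysosomes, those beside plaques above all, while neurons use the same pump to acidify and load synaptic vesicles. Loss of single hydrolases, of progranulin or of the cholesterol carriers of the lysosome causes storage disease with loss of neurons.

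The mean Apoe level was 581 ± 84.2 RPKM (SD, n = 6) with Apoe intact and 5.44 ± 0.888 RPKM (SD, n = 7) without it, and all 13 libraries went with their labels. In APPPS1;Apoe-/- replicates 2 and 5, App and Thy1 were low. App stood at 106 RPKM in replicate 2 and 116 RPKM in replicate 5, and Thy1 at 52.2 and 56.9 RPKM. In the other 11 libraries App ran from 176 to 217 RPKM and Thy1 from 172 to 245 RPKM. These 2 are called the low-App libraries below, and the count over the 48 genes is also given without them. Sequencing depth differed between the groups as well, with 28402328 to 77005806 alignments per APPPS1 library and 18455493 to 34538031 per APPPS1;Apoe-/- library, so depth and genotype cannot be fully told apart. The neuron markers of the tissue were all detected, with 14 of 14 tested and a summed level of 3721 to 4313 RPKM in the APPPS1 libraries and 3711 to 4538 RPKM in the others.

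Of the 48 lysosomal genes, 10 were lower in APPPS1;Apoe-/- cortex and 0 were higher. In RNA from whole tissue, fewer cells of a type and less of an RNA in each cell cannot be told apart. Among all 13343 genes tested, 4.74% were lower and 3.48% higher, 8.23% in all. Differences are of log2(RPKM + 0.5), APPPS1;Apoe-/- minus APPPS1, and a gene passed the test at an adjusted p under 0.05. At an unadjusted p under 0.05, 19 of the 48 were lower and 1 was higher, against 13.4% and 11.6% of all genes. By class, 6 of 23 hydrolases, 1 of 3 activators and precursors, 2 of 6 membrane or transport proteins and 1 of 16 pump subunits were lower. The median log2 difference was -0.14 over the hydrolases, -0.17 over the membrane or transport proteins and 0.0041 over the pump subunits, beside -0.0077 over all genes tested. For 7 of the 10 genes (Gusb, Naglu, Hexa, Man2b1, Grn, Npc2 and Tcirg1) the highest APPPS1;Apoe-/- value was under the lowest APPPS1 value, as was so for 2.17% of all genes.

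Without the low-App libraries 8 of the 48 were lower and 0 higher, beside 3.31% and 1.77% of all genes, and these were the 10 less Arsa and Mcoln1. With log2 alignments added to the fit over all libraries (the alignments covariate), only Arsa, Gusb and Naglu passed (0.989% of all genes were lower and 0.525% higher), while all 10 differences stayed below 0. With both changes together 4 passed, Hexa, Gusb, Naglu and Grn, where 1.49% of all genes were lower and 0.629% higher.

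**Figure D1:**
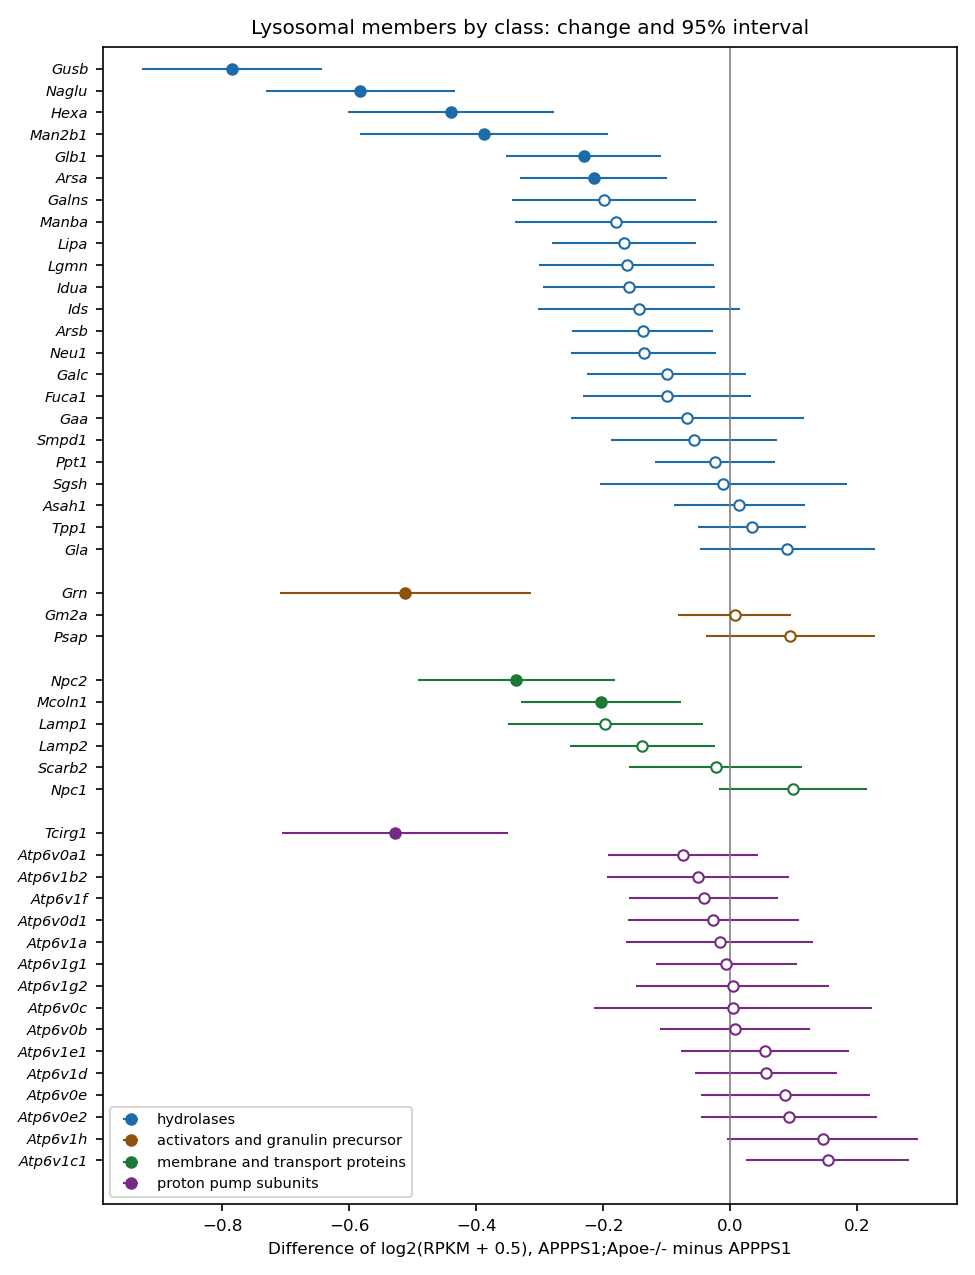
Difference of log2(RPKM + 0.5), APPPS1;Apoe-/- minus APPPS1 (horizontal axis), for the 48 genes tested, by class (colour), with the 95% interval from limma; filled points passed the test. Filled points lie only to the left of 0, and Tcirg1 is the only filled point among the 16 pump subunits.

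Many lysosomal genes carry a short palindromic element near the start of transcription, to which the transcription factor TFEB and its relatives bind, and the promoter sequences below show where its core occurs in the genes described. RefSeq sequences (build GRCm38.p6) from 250 bases before to 50 bases after the start site were found for 41 of the 49 genes. The core of that element, TCACGTG, searched on both strands, so that CACGTGA counts too and TCACGTGA counts as overlapping matches, was in 13 of the 41, in 4.29% of all 27025 genes with such a sequence and in 7.02% of the 10250 that were also tested. The full palindromic element was in 0 of the 41 and in 0.75% of the tested genes with such a sequence. The shorter palindrome TCACGTGA was in 5 of the 41 and in 2.18% of those tested genes. Of the 10 genes that were lower 1 held it, and of the 31 others 4. The core TCACGTG was in 4 of the 10 genes that were lower (Naglu, Glb1, Arsa and Mcoln1) and in 9 of the 31 others. The stretches of 30 bases around a match are printed 5′ to 3′ for these 4, with the match in capitals.
Naglu, chr11:101070009-101070038, plus strand: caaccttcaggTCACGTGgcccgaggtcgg
Glb1, chr9:114401018-114401047, plus strand: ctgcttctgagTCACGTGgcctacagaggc
Arsa, chr15:89477423-89477452, minus strand: tcaactcagtgTCACGTGttgtctgctcct
Mcoln1, chr8:3500462-3500491, plus strand: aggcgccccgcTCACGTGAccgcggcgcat

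For comparison, the same core stood in genes that did not pass the test, among them the galactosidase gene Gla and the pump subunit genes Atp6v0b and Atp6v1a.
Gla, chrX:134601215-134601244, minus strand: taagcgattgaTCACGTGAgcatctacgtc
Atp6v0b, chr4:117887348-117887377, minus strand: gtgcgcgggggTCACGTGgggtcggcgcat
Atp6v1a, chr16:44139373-44139402, minus strand: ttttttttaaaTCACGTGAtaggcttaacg

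Lamp1, which did not pass, held 4 matches in the 150 bases before its start site. Gusb, which had the largest difference of the 48 genes, held 0 in the same stretch. A match of letters is not a binding site, and its absence from this window says nothing of the factor.
Lamp1, chr8:13159011-13159160, plus strand: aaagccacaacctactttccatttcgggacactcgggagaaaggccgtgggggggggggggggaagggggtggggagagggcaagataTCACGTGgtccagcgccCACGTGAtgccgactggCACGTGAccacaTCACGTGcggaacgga
Gusb, chr5:130003050-130003199, minus strand: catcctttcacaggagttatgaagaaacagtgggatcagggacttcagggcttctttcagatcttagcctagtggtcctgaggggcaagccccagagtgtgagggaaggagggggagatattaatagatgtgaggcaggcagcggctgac

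Among the hydrolases of glycosaminoglycans, the long sugar chains of the extracellular matrix, 2 of 7 were lower, and these had the largest differences of all 48 genes. Gusb encodes beta-glucuronidase, which removes glucuronic acid from the ends of these chains. It ran from 11.3 to 14.1 RPKM with a median of 12.7 in the 6 APPPS1 libraries, and from 5.95 to 7.77 RPKM with a median of 7.35 in the 7 APPPS1;Apoe-/- libraries. The groups did not overlap, and the low-App libraries were the lowest of all, at 5.95 and 6.47 RPKM. The mean RPKM, without the added 0.5, was 56.5% of that of the APPPS1 group. Gusb fell by 0.78 ± 0.07 on the log2 scale (SE, adjusted p = 6.23e-06). Naglu encodes the glucosaminidase that acts on heparan sulfate. It ran from 1.61 to 1.99 RPKM (median 1.69) with Apoe intact and from 0.80 to 1.15 RPKM (median 1.03) without it. Again no library of a group reached the other, and APPPS1;Apoe-/- replicate 5 (1.09 RPKM) was above the median of its group. Naglu fell by 0.58 ± 0.07 on the log2 scale (adjusted p = 1.54e-04). Its mean RPKM, without the added 0.5, was 57.4% of the APPPS1 mean. At levels this low the added 0.5 makes the log2 difference smaller.

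Gusb and Naglu passed in all 13 fits that each left out 1 library. Without the low-App libraries it was -0.71 for Gusb and -0.56 for Naglu (adjusted p = 6.79e-06 and 3.73e-04). With the alignments covariate it was -0.78 and -0.61 (adjusted p = 5.07e-04 and 0.00475). Gusb lies on chromosome 5 (129989011 to 130003049, minus strand) and Naglu on chromosome 11 (101070012 to 101077672, plus strand) of mm10, neither on chromosome 7 with Apoe.

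The other 5 hydrolases of these chains did not pass the test, and all had a difference below 0. The sulfatase gene Galns averaged 2.77 ± 0.113 RPKM (SD, n = 6) and 2.36 ± 0.291 RPKM (SD, n = 7), with a log2 difference of -0.20 (adjusted p = 0.0836). It passed without APPPS1;Apoe-/- replicate 7 (adjusted p = 0.0312). Arsb, another sulfatase gene, was at 11.2 ± 0.555 and 10.1 ± 0.667 RPKM (adjusted p = 0.115). Idua, whose loss causes Hurler syndrome, was at 5.5 ± 0.182 and 4.90 ± 0.544 RPKM (adjusted p = 0.135, and 0.0481 without APPPS1;Apoe-/- replicate 3). Ids, on the X chromosome, was at 13.03 ± 0.586 and 11.8 ± 1.74 RPKM (adjusted p = 0.253), and APPPS1;Apoe-/- replicate 4, at 15.5 RPKM, was above all 12 others. Without it Ids passed, with a log2 difference of -0.21 (adjusted p = 0.0143). Sgsh was at 1.25 ± 0.227 and 1.23 ± 0.172 RPKM, with a 95% interval of the log2 difference from -0.21 to 0.18.

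Of 8 hydrolases that act on sphingolipids, the lipids of myelin and of neuronal membranes, 3 were lower. Hexa encodes the alpha subunit of the hexosaminidase that degrades ganglioside GM2, and its loss causes Tay-Sachs disease. It ran from 45.5 to 53.6 RPKM (median 49.5) with Apoe intact and from 29.7 to 42.4 RPKM (median 38.7) without it. The groups did not overlap, and the low-App libraries, at 29.7 and 30.6 RPKM, stood below the other 5 of theirs. Hexa fell by 0.44 ± 0.08 on the log2 scale (adjusted p = 0.00302), to 73.9% of the APPPS1 mean. The difference was -0.33 without the low-App libraries (adjusted p = 0.00156) and -0.42 with the alignments covariate, where the call ended (adjusted p = 0.0548).

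Glb1 and Arsa fell by less. Glb1 encodes beta-galactosidase, which acts on ganglioside GM1. It ran from 12.4 to 14.1 RPKM (median 13.4) and from 9.85 to 12.95 RPKM (median 11.1). The groups overlapped through APPPS1;Apoe-/- replicate 5, a low-App library, which was the highest of its group. Glb1 fell by 0.23 ± 0.06 on the log2 scale (adjusted p = 0.0219), by 0.27 without the low-App libraries (adjusted p = 0.0138) and by the same 0.27 with the alignments covariate, where it missed the threshold (adjusted p = 0.0839). Arsa encodes the sulfatase for the myelin lipid sulfatide. It ran from 5.38 to 6.03 RPKM (median 5.78) and from 4.41 to 5.56 RPKM (median 4.84), with a single library, replicate 7 of the APPPS1;Apoe-/- group, inside the APPPS1 range. Arsa fell by 0.22 ± 0.05 on the log2 scale (adjusted p = 0.0229). It missed the threshold without the low-App libraries (-0.21, adjusted p = 0.0549) and without APPPS1 replicate 4 (-0.21, adjusted p = 0.0507), and passed with the alignments covariate (-0.29, adjusted p = 0.0393). In the mm10 annotation 18.8% of the exon bases of Arsa are shared with an antisense gene and 12.8% of those of Hexa with Tmem202 on the other strand. The like shares were 32.3% for Arsb and 21.6% for Sgsh, and whether the authors' counting used strand is not given in the sources used here.

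The remaining 5 sphingolipid hydrolases did not pass the test. The sialidase gene Neu1 was at 6.80 ± 0.282 and 6.15 ± 0.454 RPKM (log2 difference -0.14, adjusted p = 0.126). Galc, which degrades the myelin lipid galactosylceramide, was at 2.63 ± 0.0531 and 2.43 ± 0.230 RPKM. Smpd1, the acid sphingomyelinase gene, was at 35.7 ± 0.534 and 34.5 ± 3.61 RPKM. The ceramidase gene Asah1 was at 42.7 ± 1.72 and 43.2 ± 2.68 RPKM, and its 95% interval ran from -0.09 to 0.12. Gla had the largest positive difference of the hydrolases, 0.09, at 3.80 ± 0.324 and 4.08 ± 0.336 RPKM (adjusted p = 0.413).

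Man2b1, which encodes the mannosidase that trims the sugars of glycoproteins, was the only 1 of 4 hydrolases of glycoproteins and glycogen that passed. It ran from 15.5 to 17.9 RPKM (median 16.4) with Apoe intact and from 9.65 to 15.3 RPKM (median 13.1) without it. The groups were separated by a narrow gap, and the low-App libraries were lowest, at 10.3 and 9.65 RPKM. Man2b1 fell by 0.39 ± 0.09 on the log2 scale (adjusted p = 0.0167). The difference was -0.26 without the low-App libraries (adjusted p = 0.0237) and -0.28 with the alignments covariate, without a call (adjusted p = 0.218). Manba, the beta-mannosidase gene, was at 2.67 ± 0.159 and 2.32 ± 0.319 RPKM (adjusted p = 0.149), Fuca1, the fucosidase gene, at 21.8 ± 2.06 and 20.3 ± 1.33 RPKM (adjusted p = 0.344), and Gaa, which degrades glycogen, at 63.1 ± 9.03 and 59.97 ± 6.09 RPKM (adjusted p = 0.678).

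Among the acid lipase, the proteases and the thioesterase 0 of 4 passed the limma test, and 2 were lower at an unadjusted p under 0.05. Lipa, which frees cholesterol from its esters, was at 12.1 ± 0.601 and 10.8 ± 0.781 RPKM (log2 difference -0.17, adjusted p = 0.0667, and 0.0429 without APPPS1;Apoe-/- replicate 6). The protease gene Lgmn was at 109 ± 9.01 and 97.5 ± 8.16 RPKM (-0.16, adjusted p = 0.131). Tpp1 and Ppt1, whose loss causes childhood forms of neuronal ceroid lipofuscinosis, had 95% intervals from -0.05 to 0.12 and from -0.12 to 0.07. Tpp1 and Smpd1 are the members on chromosome 7, at 86.0 and 85.9 Mb from Apoe.

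**Figure D2:**
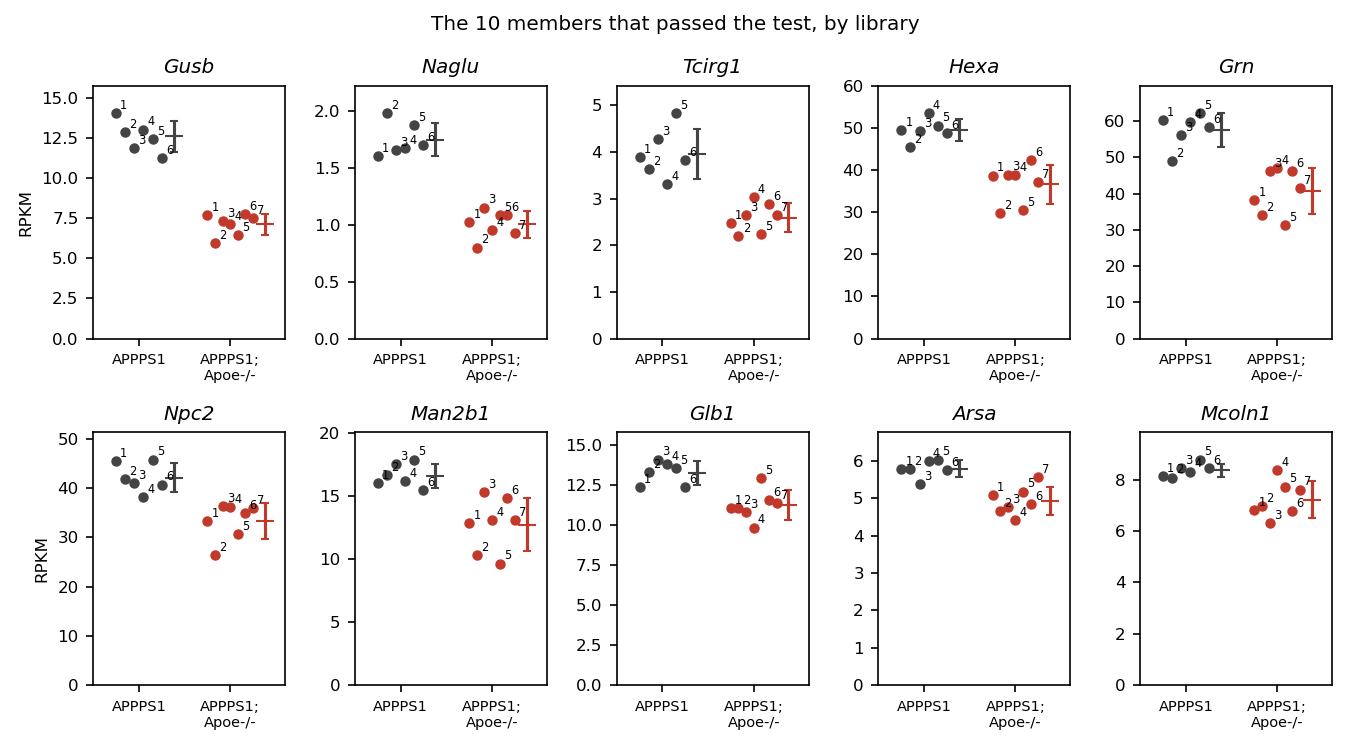
RPKM of the 10 genes that passed the test per library (points, numbered by replicate), with the groups side by side; dashes and whiskers give the mean and SD of a group (n = 6 and n = 7), and the vertical axes start at 0. The groups do not overlap for Gusb, Naglu, Tcirg1, Hexa, Grn, Npc2 and Man2b1, and replicates 2 and 5 of APPPS1;Apoe-/- lie lowest for 6 of these 7, Naglu being the exception.

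Of the soluble proteins that assist the hydrolases, Grn fell and the others did not pass. Grn encodes progranulin, which is cut into granulins in the lysosome and whose partial loss in people causes frontotemporal dementia. It ran from 49.1 to 62.2 RPKM (median 59.0) with Apoe intact and from 31.3 to 46.9 RPKM (median 41.4) without it. No library of a group reached the other, and the low-App libraries were lowest, at 34.0 and 31.3 RPKM. Grn fell by 0.51 ± 0.09 on the log2 scale (adjusted p = 0.00391), to 70.5% of the APPPS1 mean. The difference was -0.39 without the low-App libraries (adjusted p = 0.00506) and -0.45 with the alignments covariate (adjusted p = 0.0754).

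Psap encodes prosaposin, the precursor of the saposins that present sphingolipids to their hydrolases and a binding partner of progranulin. It was the most abundant of the 48 genes, from 459 to 539 RPKM (median 512) and from 475 to 590 RPKM (median 548). The groups overlapped, and the low-App libraries, at 585 and 573 RPKM, were in the upper part of their group, opposite to their place for Grn. The log2 difference of Psap was 0.09 with a 95% interval from -0.04 to 0.23 (adjusted p = 0.374). Gm2a, the activator that lifts ganglioside GM2 out of the membrane for hexosaminidase, was at 39.7 ± 0.915 and 39.9 ± 1.87 RPKM (interval -0.08 to 0.10), while the enzyme's gene Hexa fell.

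Among the membrane and transport proteins Npc2 and Mcoln1 fell. Npc2 is the soluble carrier that hands cholesterol to the membrane protein Npc1 for export from the lysosome. Npc2 ran from 38.2 to 45.8 RPKM (median 41.4) and from 26.3 to 36.4 RPKM (median 34.9). The groups did not overlap, and the low-App libraries were lowest, at 26.3 and 30.7 RPKM. Npc2 fell by 0.34 ± 0.07 on the log2 scale (adjusted p = 0.0103), by 0.25 without the low-App libraries (adjusted p = 0.0163), and by 0.30 with the alignments covariate, without a call (adjusted p = 0.123). Npc1 did not pass. It ran from 6.38 to 7.83 RPKM (median 7.07) and from 6.73 to 7.94 RPKM (median 7.79), with a log2 difference of 0.10 and a 95% interval from -0.02 to 0.22 (adjusted p = 0.281).

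Mcoln1 encodes the calcium channel TRPML1 of the lysosomal membrane. It ran from 8.07 to 8.78 RPKM (median 8.37) and from 6.30 to 8.36 RPKM (median 6.98), and the groups overlapped through APPPS1;Apoe-/- replicate 4, the highest of its group. Its fall of 0.20 ± 0.06 on the log2 scale was just inside the threshold (adjusted p = 0.0450). The call held in 3 of the 13 fits that each left out 1 library (adjusted p from 0.0112 to 0.0882), and ended without the low-App libraries (adjusted p = 0.0780) and with the alignments covariate (adjusted p = 0.137).

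The main glycoproteins of the lysosomal membrane did not pass. Lamp1 was at 34.3 ± 1.62 RPKM in the APPPS1 group, from 32.1 to 36.3, and at 30.1 ± 3.90 RPKM in the APPPS1;Apoe-/- group, from 25.5 to 36.7 (log2 difference -0.20, adjusted p = 0.106). Without APPPS1;Apoe-/- replicate 4, the highest of its group, Lamp1 passed (-0.25, adjusted p = 0.0195). Lamp2, needed for the fusion of autophagosomes with lysosomes, was at 22.3 ± 0.970 RPKM, from 20.8 to 23.4, and at 20.3 ± 1.52 RPKM, from 17.8 to 21.9 (-0.14, adjusted p = 0.121). For both the 95% interval lay below 0 (-0.35 to -0.04 and -0.25 to -0.02) although the adjusted p missed the threshold. Scarb2, the receptor that brings glucocerebrosidase to the lysosome, was at 7.72 ± 0.356 and 7.62 ± 0.806 RPKM, with an interval from -0.16 to 0.11.

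**Figure D3:**
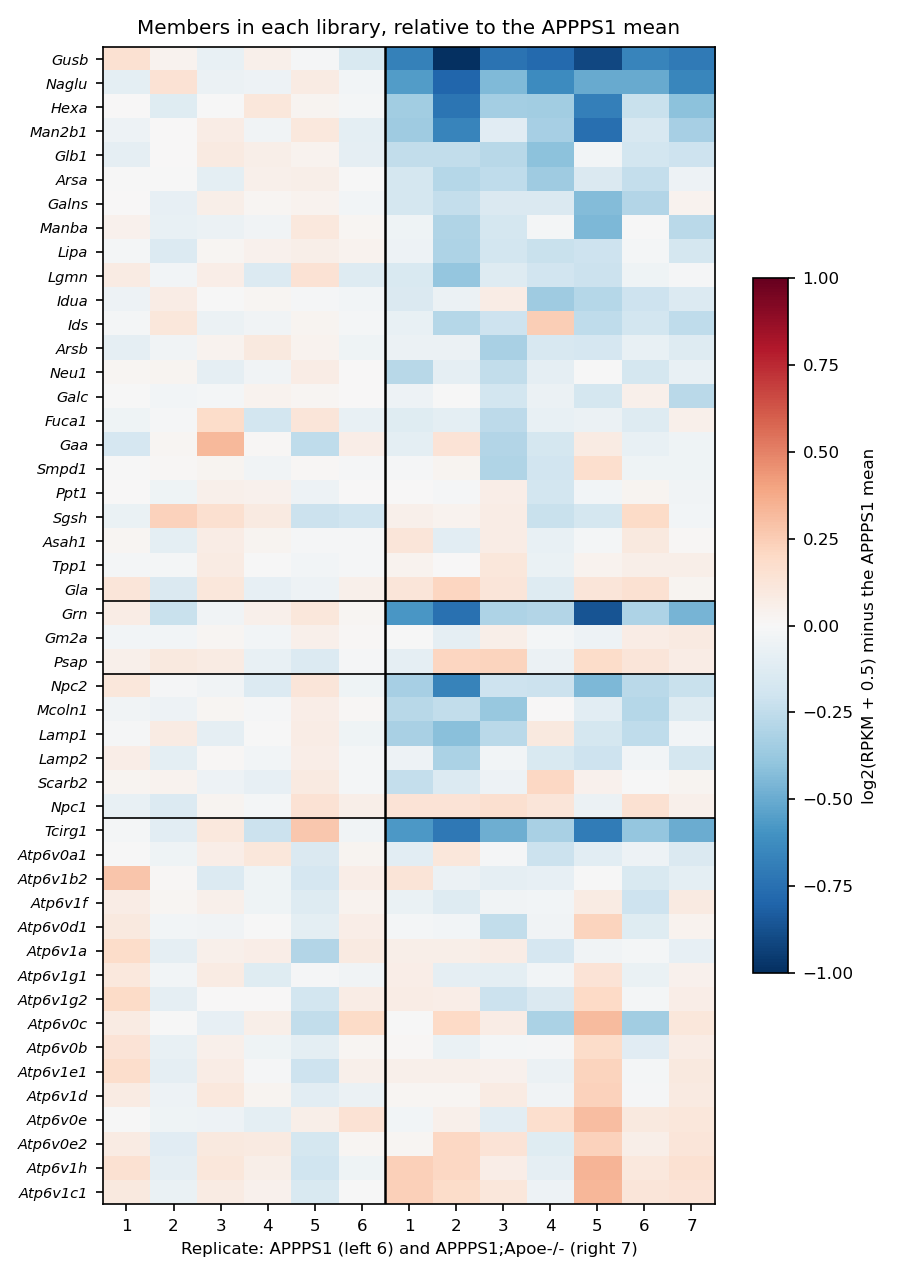
Log2(RPKM + 0.5) of the 48 genes (rows, by class and by difference) in each library (columns, by group and replicate) minus the mean of the 6 APPPS1 libraries, on a scale from -1 to 1. Gusb, Naglu, Hexa, Man2b1, Grn, Npc2 and Tcirg1 are below the APPPS1 mean in all 7 APPPS1;Apoe-/- libraries, and replicates 2 and 5 of that group are the lowest for all of these but Naglu.

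The summed level of the proton pump overlapped between the groups. Its genes were far more abundant than those of the hydrolases, with a median level of 177 RPKM over 16 subunits against 11.4 RPKM over 23 hydrolases. That sum was 3139 to 3816 RPKM (median 3568) in the APPPS1 libraries and 3274 to 4021 RPKM (median 3599) in the APPPS1;Apoe-/- libraries. The highest sum was in APPPS1;Apoe-/- replicate 5 and the lowest in APPPS1 replicate 5. These libraries also had the highest and the lowest sum over all genes of the table, 355566 and 315082 RPKM. The sum of neuron markers was highest in APPPS1;Apoe-/- replicate 5 as well (4538 RPKM). The part of neurons or of the library totals in the pump values was not tested. For the hydrolases the sums were 518 to 563 RPKM and 464 to 507 RPKM, without overlap.

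Tcirg1 was the exception among the subunits. It encodes a3, the form of subunit a that macrophages and osteoclasts use and that the brain otherwise makes mostly as a1, from Atp6v0a1. Tcirg1 ran from 3.31 to 4.83 RPKM (median 3.85) with Apoe intact and from 2.20 to 3.04 RPKM (median 2.64) without it. The groups did not overlap, and the low-App libraries were lowest, at 2.20 and 2.23 RPKM. Tcirg1 fell by 0.53 ± 0.08 on the log2 scale (adjusted p = 0.00143). Its mean RPKM, without the added 0.5, was 65.4% of the APPPS1 mean. It fell by 0.45 without the low-App libraries (adjusted p = 0.00601) and by 0.45 with the alignments covariate, just outside the threshold (adjusted p = 0.0521). Atp6v0a1 ran from 78.8 to 94.3 RPKM (median 87.9) and from 75.3 to 94.3 RPKM (median 81.1), with overlapping groups (log2 difference -0.07, adjusted p = 0.437). Of the summed RPKM of the 4 genes for subunit a, Tcirg1 made up 4.06 ± 0.689% (SD, n = 6) and 2.83 ± 0.458% (SD, n = 7), and Atp6v0a1 89.3 ± 1.57% and 90.2 ± 0.936%.

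For the other subunits with alternative forms no gene passed the test. Atp6v0d1, the form of subunit d found in most cells, ran from 93.2 to 107 RPKM (median 99.0) and from 84.4 to 117 RPKM (median 98.1), with an interval of the log2 difference from -0.16 to 0.11. Its counterpart Atp6v0d2, known from osteoclasts and activated macrophages, stayed between 0.0401 and 0.156 RPKM in the APPPS1 group and between 0 and 0.134 RPKM in the APPPS1;Apoe-/- group, too weak to test. Of the subunit e genes Atp6v0e2 made up 87.4 ± 1.32% and 87.4 ± 1.33% of the summed RPKM, and Atp6v0e the rest. Atp6v0e2 ran from 345 to 417 RPKM (median 405) and from 359 to 458 RPKM (median 424), and Atp6v0e from 52.4 to 62.2 RPKM (median 55.3) and from 52.4 to 69.7 RPKM (median 60.3), without a call (adjusted p = 0.404 and 0.415). Of the subunit G genes the neuronal form Atp6v1g2, from 223 to 289 RPKM (median 254) and from 218 to 291 RPKM (median 265), exceeded Atp6v1g1, from 166 to 194 RPKM (median 178) and from 168 to 199 RPKM (median 177). Atp6v1g2 made up 58.4 ± 2.09% and 58.6 ± 1.67% of their sum.

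Apart from Tcirg1, the differences of the 15 remaining subunits tested lay between -0.07 and 0.15, and their 95% intervals between -0.22 and 0.30. None of these 15 passed the limma test, and 1 was past an unadjusted p under 0.05. This was Atp6v1c1, subunit C of the cytosolic sector, which ran from 138 to 164 RPKM (median 155) and from 148 to 193 RPKM (median 168), a log2 difference of 0.15 (adjusted p = 0.127). It passed when APPPS1;Apoe-/- replicate 4, the lowest of its group, was left out (0.19, adjusted p = 0.0395). The ATP-binding subunits Atp6v1a and Atp6v1b2 were at 174 ± 19.6 and 172 ± 10.5 RPKM and at 140 ± 16.2 and 135 ± 8.87 RPKM. Atp6v0c, whose product forms the proton-carrying ring, was at 480 ± 49.3 and 485 ± 81.0 RPKM, the widest spread among the subunits. Reads of Atp6v0c can be shared with 2 processed pseudogenes in the mm10 annotation, so its level is uncertain.

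**Figure D4:**
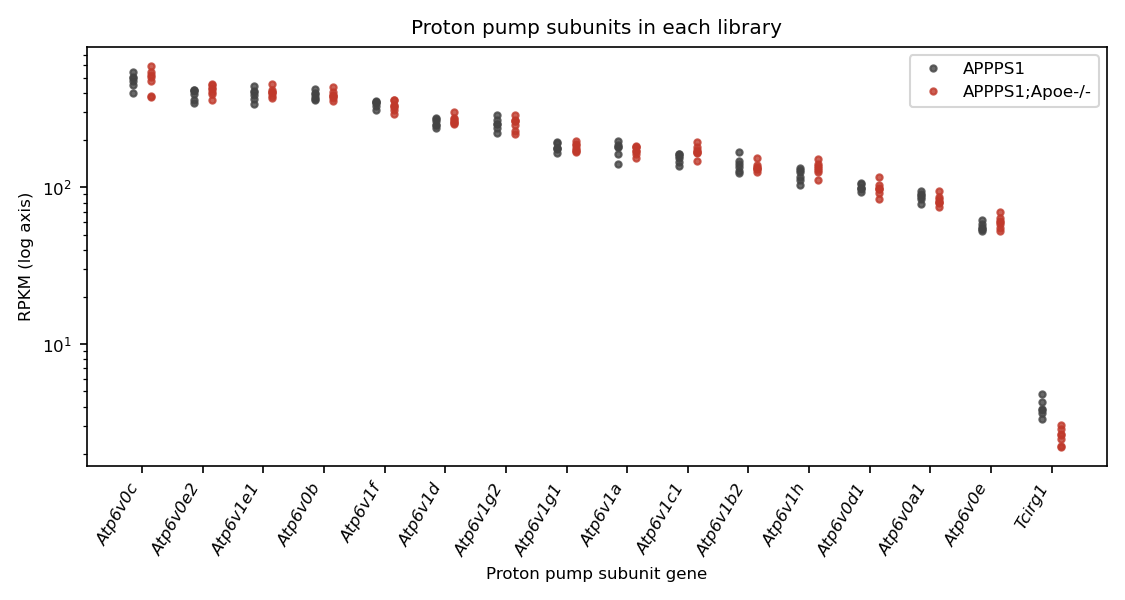
RPKM (log axis) of the 16 pump subunit genes tested in each library (points), ordered by mean level, APPPS1 in grey and APPPS1;Apoe-/- in red. The groups overlap for all subunits except Tcirg1, which at 2.20 to 4.83 RPKM is also the least abundant.

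Other genes of the lysosome were read from lists outside these 49. Of 116 tested, 18 were lower and 3 higher (median log2 difference -0.03), and 15 and 1 without the low-App libraries, where 117 were tested. With the alignments covariate 9 of the 116 were lower. Of the cathepsins, proteases of the lysosome, 7 of 11 were lower, and 3 with the alignments covariate. Ctsd, Ctsa, Ctsz and Ctsl had the smallest adjusted p among them, with falls of 0.86, 0.34, 0.82 and 0.22 on the log2 scale. Of 35 further hydrolases 6 were lower and 1 higher. Dnase2a and Man2b2 fell by 0.50 and 0.41 on the log2 scale. Rnaset2a fell by 0.43, and Entpd4 rose by 0.61. Both have close copies in the genome that can share reads, which makes these values uncertain.

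Of 35 further membrane and transport proteins 5 were lower and 2 higher. Slc11a1, the metal transporter of phagosomes, fell from 7.14 ± 0.699 to 2.58 ± 0.662 RPKM, a log2 difference of -1.34 ± 0.13 (adjusted p = 1.57e-05). The macrophage glycoprotein gene Cd68 fell by 1.24 ± 0.19 (adjusted p = 0.00105), Slc15a3, which exports peptides, by 0.79, and the tetraspanin gene Cd63 by 0.47. Lamp5, a relative of Lamp1 that neurons express, rose by 0.41 ± 0.11 (adjusted p = 0.0286) and Mfsd8 by 0.31. Their calls held in 7 and 5 of the 13 fits that left out 1 library, and both ended without the low-App libraries (adjusted p = 0.0957 and 0.125). With the alignments covariate Ctsd, Ctsa, Ctsz, Dnase2a, Man2b2, Slc11a1, Slc15a3, Cd68, Cd63 and Entpd4 passed.

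Among 14 further subunits and assembly factors of the pump, and among 21 genes of the TFEB family and of lysosomal mTORC1 signalling, 0 passed the limma test. Of the 14, 1 was lower and 2 were higher at an unadjusted p under 0.05, and of the 21, 2 were lower and 0 higher. Tfe3 was at 3.31 ± 0.218 and 2.97 ± 0.264 RPKM (log2 difference -0.14, adjusted p = 0.174). Tfeb itself, at 0.360 ± 0.0400 and 0.262 ± 0.115 RPKM, was too weak to test.

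Most markers of microglia were lower in APPPS1;Apoe-/- cortex as well. Of 16 microglia markers 12 were lower and 0 higher, 11 were lower without the low-App libraries, and 1 was lower with the alignments covariate. Their summed level ran from 918 to 1084 RPKM in the APPPS1 libraries and from 357 to 730 RPKM in the APPPS1;Apoe-/- libraries, and 0 of the 16 were at 0. In the low-App libraries the sum was 357 and 403 RPKM, against 654 to 730 RPKM in the other 5. Of 14 markers of plaque-associated microglia 13 were lower (13 without the low-App libraries, 6 with the covariate), with sums of 469 to 587 and 140 to 304 RPKM, among them Trem2, at 75.4 ± 4.11 and 33.7 ± 11.97 RPKM. In 6 of the 10 lysosomal genes that fell (Hexa, Gusb, Man2b1, Grn, Npc2 and Tcirg1) both low-App libraries were likewise below the other 5 of their group, as they were in 5 of the 38 tested genes that did not pass. For Naglu, Glb1, Arsa and Mcoln1 they were not. The 10 genes passed in a fit that held these libraries, so the calls are not independent of their values. Low values there lower the group mean but also widen its spread. The counts of 6 of 10 and 5 of 38 therefore cannot be weighed against each other, and the share over all genes was not counted. The part of microglia in these values was not tested.

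Fewer markers of other cells passed. Of 12 astrocyte markers 3 were lower and 1 higher, with sums of 1445 to 1603 and 1368 to 1591 RPKM, and of 14 neuron markers 1 was lower. Of 12 oligodendrocyte markers 4 were higher, with sums of 886 to 1238 and 998 to 1575 RPKM, and of 10 endothelial markers 1 was lower and 1 higher, with sums of 59.1 to 81.9 and 71.3 to 92.5 RPKM. Of 10 markers of striatal neurons 1 was higher, with sums of 333 to 817 and 435 to 924 RPKM. All 10 striatal differences were above 0 (median 0.46), and 8 were higher at an unadjusted p under 0.05 in the limma test. Of the 12 oligodendrocyte differences 10 were above 0 and 2 below (median 0.24), with 7 higher and 0 lower at that threshold. Among all genes tested 11.6% were higher at it. Of 3 tested choroid plexus and ependymal markers and of 4 tested perivascular macrophage and leukocyte markers, 1 and 2 were higher. Without the low-App libraries the calls in these lists were 1 lower astrocyte marker, 1 higher oligodendrocyte marker, 1 lower and 1 higher endothelial marker and 1 higher perivascular or leukocyte marker. With the alignments covariate they were 3 higher striatal markers and 1 higher perivascular or leukocyte marker. The part of these cells in the lysosomal values was not tested.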

How the data were processed

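RNA from the cortex of 13 mice was extracted with Trizol and made into libraries with the Clontech SMARTer kit, per the labels' protocols. The authors deposited RPKM values per gene, 1 row per library, with the number of alignments as a count per library. Partek and the mm10 build were used, per the submitters' processing notes. For the aligner, the counting rule, strand use and the annotation, the sources used here name nothing. The genotype in the table was that of the labels for 13 of 13 libraries, and no pair of libraries was identical (median absolute log2 difference of at least 0.0921).

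Values entered the fit as log2(RPKM + 0.5). Of the genes, 13343 averaged 0.5 RPKM or more over the libraries, and limma 3.58.1 (R 4.3.3; lmFit, then eBayes with a variance trend) compared the genotypes in these, with no covariate. P-values were two-sided and adjusted by Benjamini-Hochberg over all genes tested. The fit was tested on simulated data for this comparison, in which 200 of 13343 genes were changed: 82.1% of changes of 0.5 on the log2 scale, 97% of 1 and 98.5% of 2 were called, and 3.65% of calls were unchanged genes. The simulated noise was normal, independent for each gene and library, and of the same spread in both groups. It held neither the depth difference nor libraries that were low together, so these rates may not hold for the real data. Positions are of GENCODE M21 (GRCm38), matched by symbol for all 49 members, and promoters of RefSeq (GRCm38.p6), matched for 41.

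The members and lists were chosen with earlier results of these data known. Members were named in full when called, as were fixed pairs of related members, with up to 4 called genes per direction from each other list. One gene that this rule names is not reported here. Tables and figures used Python 3.11.15, pandas 2.3.3, numpy 2.4.6 and matplotlib 3.10.9. Other settings were pseudocounts of 0.1 and 1, filters above 0 and of at least 1, median and quantile scaling, no variance trend, array weights, an Xist covariate and leaving out each library. Leaving out the low-App libraries and the alignments covariate were added after seeing the data.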

Additional observations from a re-analysis of the deposited data

Results flagged for a closer look

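Of 96 groups of values tested (48 genes in 2 groups of libraries), 3 held a library far from the others, where chance flags about 1 group in 20. Ids was at 15.5 RPKM in APPPS1;Apoe-/- replicate 4, while the remaining 6 of that group lay between 10.6 and 12.4 RPKM. Ppt1 was at 53.3 RPKM in the same library, against 59.0 to 63.3 RPKM. Tpp1 was at 40.1 RPKM in APPPS1 replicate 3, the most deeply sequenced library, while the remaining 5 lay between 37.2 and 37.8 RPKM. None of these 3 genes passed the test between the groups with all libraries, and Ids passed without replicate 4 (adjusted p = 0.0143).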

How the results depend on the processing

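With other pseudocounts, a filter of at least 1 RPKM, either scaling and the Xist covariate all 10 members stayed lower and 0 others passed. Mcoln1 left with no filter and with no variance trend, so that 1 membrane or transport protein was lower, as it was without the low-App libraries. Lamp1 joined with array weights. Over the fits that left out 1 library each, 8 to 12 members were lower and 0 to 1 higher, 5 to 7 hydrolases, 1 to 3 membrane or transport proteins and 1 to 1 pump subunits were lower, and 0 to 1 pump subunits were higher (Atp6v1c1, without APPPS1;Apoe-/- replicate 4). Other lysosomal genes numbered 15 to 19 lower and all genes called 699 (without APPPS1 replicate 6) to 1596, against 1098 with all libraries. Of the 10 members, 8 were called in each such fit, the exceptions being Arsa (12 of 13) and Mcoln1 (3 of 13). All genes called numbered 678 without the low-App libraries, 202 with the alignments covariate and 283 with both. The covariate left 3 members, all 3 of them hydrolases, 0 membrane or transport proteins, 0 pump subunits and 9 other lysosomal genes lower. With both there were 4 members, 3 hydrolases, 0 membrane or transport proteins and 0 pump subunits. The covariate shares much of its variation with genotype, and the cause of the lost calls was not tested. No paired analysis was possible because the labels do not pair libraries across the groups. Read counts per gene were not used here, so weak genes such as Naglu carry a counting error that is not stated.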
